A study of Mus musculus with 16 samples.

Results

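Cell cycle and DNA replication genes are a list of 40 genes that encode the machinery with which a dividing cell copies and separates its chromosomes. They were found by the gene symbol that the platform annotation gives each probe set. Of the 40 genes, 38 had a named probe set, 1 each, among the 22206 probe sets tested. Levels of Mcm7 and Foxm1 were not analysed here. Transcripts of these genes accumulate in waves: genes for S phase entry and replication are switched on around the start of S phase, largely by E2F factors, and genes for mitosis follow in G2 and M. Neurons that have left the cycle carry little of either, and in the olfactory mucosa, where sensory neurons are replaced throughout life, the dividing cells of the neuronal lineage are mainly globose basal cells. Precursors of blood cells divide too.

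The arrays hold RNA from olfactory mucosa of male and female C57BL/6 mice aged 7 to 12 weeks. All carried S100a5-tauGFP, a reporter in which S100a5, a gene whose transcription in olfactory neurons depends on activity, drives a fluorescent fusion protein. The 24 mice stayed 40 h in clean air at 3.1 L/min, and from 26 h they received pulses of 10 s every 20 min. Vehicle mice received filtered air, and undecanal mice received that fatty aldehyde odorant. The mucosa was dissociated and sorted on GFP as 4 pools of 3 mice per agent, so the 4 groups of 4 Clariom S arrays were vehicle titled GFP+, vehicle titled GFP-, undecanal titled GFP+ and undecanal titled GFP-. The sorted cells were mixed, and in such bulk RNA fewer cells of a type and less RNA per cell cannot be told apart.

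The fractions are named after the sample titles, because titles and characteristics gave opposite GFP signs in 16 of 16 samples. In 8 of 8 pools the array titled GFP+ had the lower level of S100a5, whose promoter drives the reporter, which goes with the characteristics and against the titles. Every direction below is titled GFP+ minus titled GFP-, differences are on the log2 scale, and of paired values the vehicle one comes first. If the characteristics are right, the differences between fractions and their change with undecanal turn sign, while the undecanal differences within a fraction keep it and swap fractions. Levels are log2 probe set values, and a probe set's level is compared between arrays only. Levels under 4.80 are called below background: 95% of the group means of 358 vomeronasal and bitter taste receptor probe sets lie under it. Where a gene was below background on all 4 arrays of the dimmer group, its change is given as at least N-fold, the brighter group's mean against that background level.

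Promoter letters were not used to list the genes, but the genes and their roles were listed by function in the cell cycle. Letters of this kind are known from such genes, so the shares below describe the list and are no independent test. RefSeq windows of GRCm38.p6, from 250 bases before to 50 bases after the start of transcription, were found for 33 of the 40 genes. Mcm7, which had no named probe set, is among the 33 and among the S phase and replication genes. They were searched on both strands for the cell cycle homology region (CHR, TTTGAA or TTCGAA), for CCAAT, and for E2F letters (TTTGGCGC, TTTCCCGC, TTTGCCGC or TTTCGCGC), where matches may overlap. A CHR stood in 57.6% of the 33 windows, against 19.4% of the windows of 27025 genes. CCAAT stood in 75.8% against 37.9%, both together in 54.5% against 7.7%, and E2F letters in 18.2% against 2.32%. As background, the CHR is a letter pattern of genes that peak in G2 and mitosis, CCAAT is recognised by NF-Y, and E2F letters are a pattern of S phase genes. The letters split by role. Of the 12 windows of S phase and replication genes 25.0% held a CHR and 41.7% E2F letters, and of the 21 other windows 76.2% held a CHR and 4.76% E2F letters. CCAAT was about as frequent in both, at 75.0% and 76.2%.

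Stretches of 7 promoters are shown 5′ to 3′ on the strand of the gene, each cut to a run of matches near the start and ending before it, with matching letters of either strand in capitals. Those of Mki67, Cdk1, Top2a and Kif11 hold CHR and CCAAT letters. Ccnb2 shows 3 CCAAT boxes in a row and has CHR letters on both sides of its stretch. Mcm6 shows overlapping E2F matches on opposite strands, and Aurka, whose level did not pass the test between fractions, shows 2 CCAAT boxes and has CHR letters past its start.
Mki67: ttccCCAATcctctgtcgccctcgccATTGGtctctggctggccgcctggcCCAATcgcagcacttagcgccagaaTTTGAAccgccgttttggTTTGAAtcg
Cdk1: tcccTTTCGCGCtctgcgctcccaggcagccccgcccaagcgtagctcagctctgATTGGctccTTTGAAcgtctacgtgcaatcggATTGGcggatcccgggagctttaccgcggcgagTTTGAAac
Top2a: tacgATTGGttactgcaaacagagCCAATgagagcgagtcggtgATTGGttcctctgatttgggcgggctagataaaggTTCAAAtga
Ccnb2: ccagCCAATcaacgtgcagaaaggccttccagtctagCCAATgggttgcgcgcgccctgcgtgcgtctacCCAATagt
Kif11: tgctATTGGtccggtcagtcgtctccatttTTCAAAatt
Mcm6: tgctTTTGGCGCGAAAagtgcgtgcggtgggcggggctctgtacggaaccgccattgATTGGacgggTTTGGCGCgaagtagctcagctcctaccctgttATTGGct
Aurka: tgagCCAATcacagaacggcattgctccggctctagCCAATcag

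The stretches lie in GRCm38.p6 at chr7:135716469-135716571, minus strand (Mki67); chr10:69352920-69353047, minus strand (Cdk1); chr11:99024204-99024291, minus strand (Top2a). The others lie at chr9:70421568-70421645, minus strand (Ccnb2); chr19:37376333-37376371, plus strand (Kif11); chr1:128359713-128359819, minus strand (Mcm6); chr2:172370582-172370625, minus strand (Aurka). Of 24 windows of genes called higher in both agents 50.0% held a CHR, and of 8 windows of measured genes not called in both 75.0% did. E2F letters stood in 20.8% of the former and 0 of the latter, and the difference between these sets was not tested. A match is a run of letters and not a shown binding site.

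Between sort fractions, most of the genes were higher where the title says GFP+. Among the 38, vehicle pools gave 30 calls higher and 0 lower (limma, adjusted p under 0.05 over all probe sets), where 8.82% of all probe sets were called higher and 5.12% lower. In undecanal pools 28 were called higher and 0 lower, against 8.83% and 4.36% of all probe sets. The median difference was 1.31 on the log2 scale in vehicle pools (range 0.054 to 5.11) and 1.39 in undecanal pools (0.0021 to 4.85), while the median over all probe sets was -0.11 in both. With genes below background in the dimmer group set at their bound, the medians were 0.91 and 0.66. The 2 comparisons share no arrays, but their tests share 1 estimate of each probe set's spread. In both, 28 genes were called, against 7.57% of all probe sets. Ccne1 and Bub1b were called in vehicle pools alone, a difference between agents that their interaction terms did not call, and 8 genes were called in neither: Ccne2, Cdc45, Mcm4, Tyms, Aurka, Ttk, Cenpf and Prc1. Within pools, 30 of the 38 genes were higher in the array titled GFP+ in 8 of 8 pools, against 10.3% of all probe sets.

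The fitted differences of all 38 genes were above 0 in both agents on the deposited scale, but with arrays centred on their median 32 and 34 were, and after quantile normalization 34 and 36. The median of all probe sets was higher in arrays titled GFP+ (6.21 to 6.34) than in those titled GFP- (5.89 to 5.98). Centring each array on it lowered the overall median difference to -0.47 in vehicle pools and -0.46 in undecanal pools, and the median of the 38 genes to 0.95 and 1.03. Under that centring Aurka, Ccne2, Cdc45, Mcm4, Prc1 and Ttk were below 0 in vehicle pools and Aurka, Cdc45, Mcm4 and Prc1 in undecanal pools. After quantile normalization Aurka, Ccne2, Prc1 and Ttk were below 0 in vehicle pools and Cdc45 and Prc1 in undecanal pools. None of these was called lower under either scaling, and with median centring 27 and 25 genes were called higher. With vehicle pool 1 left out 22 genes were called in vehicle pools, and with undecanal pool 1 left out 21 in undecanal pools.

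**Figure D1:**
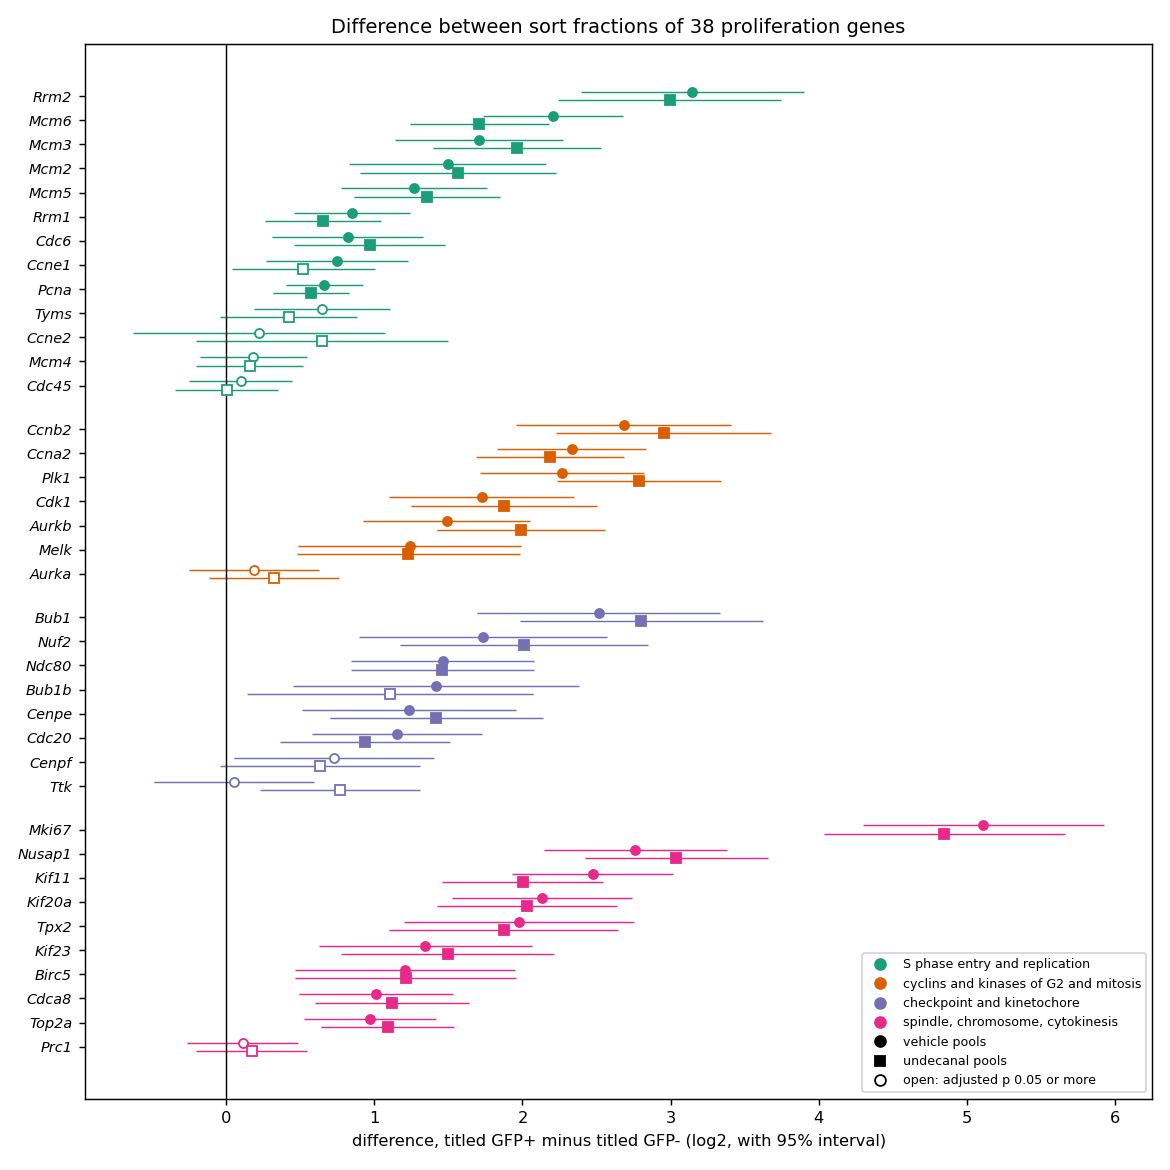
Difference between sort fractions, titled GFP+ minus titled GFP- on the log2 scale with its 95% interval, for 38 genes ordered by role and by size in vehicle pools. Circles are vehicle pools and squares undecanal pools, 4 pools each; filled marks passed an adjusted p of 0.05. Mki67 stands at 5.11 and 4.85, and 8 genes have open marks in both agents.

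Among genes for S phase entry and replication, 9 of 13 were called higher in vehicle pools and 8 in undecanal pools, with medians of 0.82 and 0.65. Rrm2, the small subunit of ribonucleotide reductase, which makes deoxynucleotides, had the largest difference of this role. Its levels in vehicle arrays titled GFP- were 5.39, 4.83, 5.27 and 5.78 in pools 1 to 4, and in those titled GFP+ 8.39, 8.40, 9.28 and 7.79. In undecanal arrays they were 5.39, 5.53, 5.35 and 4.83, and 9.49, 8.13, 7.89 and 7.57. The fractions did not overlap, and the difference was 3.15 (SE 0.36, adjusted p = 3.25e-06 by limma) in vehicle pools and 2.99 (SE 0.36, adjusted p = 6.22e-06 by limma) in undecanal pools. Rrm1, the large subunit of the same enzyme, differed by 0.85 and 0.65 and was called in both. With median centring these fell to 0.49 and 0.30, and the undecanal call was lost there and when undecanal pool 1, 2 or 4 was left out (limma adjusted p up to 0.161).

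The MCM proteins form the helicase that unwinds DNA at replication forks. Mcm2, Mcm3, Mcm5 and Mcm6 were called higher in both agents, and Mcm4 was not. Mcm2 stood at 5.37, 4.70, 4.48 and 5.25 in vehicle arrays titled GFP- and at 6.17, 6.07, 7.13 and 6.41 in those titled GFP+. Its undecanal levels were 5.21, 4.51, 4.65 and 4.69, and 7.29, 5.81, 6.44 and 5.77. All 8 arrays titled GFP+ were above all 8 titled GFP-, of which 5 were below background, and the differences were 1.49 (SE 0.31, adjusted p = 0.00253 by limma) and 1.57 (SE 0.31, adjusted p = 0.00168 by limma). Mcm6 differed by 2.21 (SE 0.22, adjusted p = 8.20e-07 by limma) and 1.71 (SE 0.22, adjusted p = 1.91e-05 by limma), and Mcm5 by 1.27 and 1.35. Mcm3 was below background on all 8 arrays titled GFP- and was at least 2.21-fold higher in vehicle arrays titled GFP+ (limma adjusted p = 1.55e-04) and at least 1.77-fold in undecanal ones (limma adjusted p = 3.30e-05). Mcm4 differed by 0.18 (95% interval -0.18 to 0.54) and 0.16 (-0.20 to 0.52), and its fractions overlapped in both agents.

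Pcna, the sliding clamp of DNA polymerases, which also serves DNA repair, had a small difference and a smaller spread. Its vehicle levels were 13.63, 13.85, 13.79 and 13.71 in arrays titled GFP- and 14.61, 14.22, 14.44 and 14.36 in those titled GFP+. Its undecanal levels were 13.82, 13.76, 13.89 and 13.84, and 14.54, 14.34, 14.38 and 14.33. The fractions did not overlap although the difference was only 0.66 (SE 0.12, adjusted p = 7.76e-04 by limma) and 0.57 (SE 0.12, adjusted p = 0.00289 by limma), with group SDs from 0.05 to 0.16. With median centring the differences were 0.31 and 0.22, and the undecanal one no longer passed (limma adjusted p = 0.138). Tyms, thymidylate synthase, differed by 0.65 and 0.42 and passed in neither (limma adjusted p = 0.0592 and 0.258).

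Ccne1, the cyclin E1 that opens S phase with Cdk2, stood at 5.34, 5.12, 5.53 and 4.91 in vehicle arrays titled GFP- and at 6.60, 5.50, 5.93 and 5.86 in those titled GFP+. Its undecanal levels were 5.51, 5.67, 5.55 and 4.83, and 6.23, 5.81, 5.77 and 5.82. The vehicle array of pool 2 titled GFP+ lay within the range of the other fraction, and the difference was 0.75 (SE 0.23, adjusted p = 0.0351 by limma) in vehicle pools and 0.52 (SE 0.23, adjusted p = 0.165 by limma) in undecanal pools. The vehicle call was lost under 7 of 16 alternatives, among them median centring and leaving out vehicle pool 1, 3 or 4. Ccne2 differed by 0.22 and 0.65 and read higher under the GFP+ title in 4 of 8 pools. Cdc6, which loads the helicase, was below background on all 8 arrays titled GFP- and called higher in both agents, at least 1.08-fold and at least 1.3-fold. Its vehicle call was lost with median centring and without vehicle pool 1 or 3 (limma adjusted p up to 0.245), and its undecanal call without undecanal pool 1 (limma adjusted p = 0.074). Cdc45, a helicase partner at the fork, had the smallest vehicle difference of the role. Its levels were 8.96, 8.54, 9.42 and 9.02 in vehicle arrays titled GFP- and 9.09, 8.98, 9.15 and 9.12 in those titled GFP+. In undecanal arrays they were 8.80, 8.84, 9.11 and 9.20, and 8.96, 9.17, 8.99 and 8.84. All 4 groups overlapped, with differences of 0.097 (SE 0.17, adjusted p = 0.761 by limma) and 0.0021 (SE 0.17, adjusted p = 0.996 by limma).

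**Figure D2:**
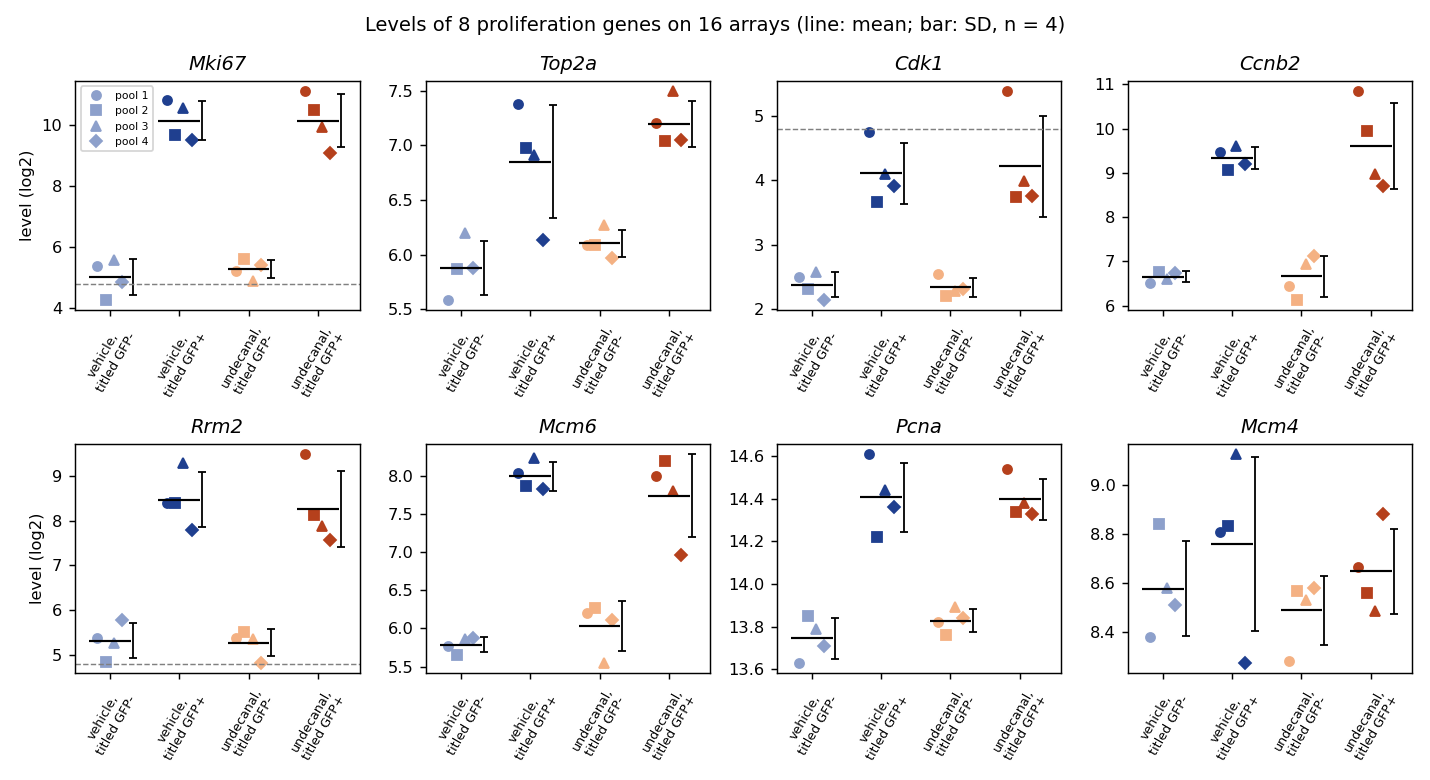
Levels of 8 genes on the log2 scale on each of the 16 arrays, by group, with the group mean (line) and its SD (bar, n = 4) and the background level of 4.80 where it falls inside the panel (dashed). Mki67, Ccnb2, Rrm2, Mcm6 and Pcna separate the fractions in both agents, Cdk1 does so with 15 of 16 arrays below background, and Mcm4 overlaps.

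Cyclins and kinases of G2 and mitosis were called higher for 6 of 7 genes in both agents, with medians of 1.72 and 1.99. Ccnb2, cyclin B2, a partner of Cdk1, stood at 6.51, 6.75, 6.60 and 6.75 in vehicle arrays titled GFP- and at 9.46, 9.06, 9.61 and 9.20 in those titled GFP+. In undecanal pools it stood at 6.44, 6.13, 6.95 and 7.11, and at 10.84, 9.94, 8.97 and 8.70. The lowest array titled GFP+ was above the highest titled GFP- in each agent, and the differences were 2.68 (SE 0.34, adjusted p = 1.51e-05 by limma) and 2.95 (SE 0.34, adjusted p = 4.79e-06 by limma). Cdk1, the kinase that drives entry into mitosis, read 2.50, 2.31, 2.57 and 2.14 in vehicle arrays titled GFP- and 4.76, 3.66, 4.10 and 3.92 in those titled GFP+. Its undecanal readings were 2.55, 2.21, 2.28 and 2.32, and 5.38, 3.74, 3.98 and 3.76. All but 1 of these readings were below background, so no fold is given. The readings nevertheless did not overlap, and the test called them higher (limma adjusted p = 3.90e-04 and 1.63e-04).

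Ccna2, cyclin A2, which acts in S phase and G2, was in vehicle arrays titled GFP+ at least 4.14-fold higher (limma adjusted p = 8.89e-07), and its undecanal difference was 2.18 (SE 0.24, adjusted p = 2.10e-06 by limma). Plk1, a kinase of centrosome and spindle assembly, differed by 2.27 (SE 0.26, adjusted p = 4.44e-06 by limma) in vehicle pools and was at least 4.98-fold higher in undecanal pools (limma adjusted p = 3.47e-07). Aurkb, the kinase of the chromosomal passenger complex, was at least 2-fold and at least 2.16-fold higher. Melk, a kinase of dividing cells, was called in both agents, but 15 of its 16 readings were below background, no fold is given, and the call was lost in each agent under 5 of 15 alternatives. Aurka, the aurora kinase of spindle poles, was the exception. It stood at 4.91, 5.72, 4.99 and 5.56 in vehicle arrays titled GFP- and at 5.59, 5.66, 5.23 and 5.45 in those titled GFP+. In undecanal pools it stood at 5.58, 4.98, 4.97 and 4.80, and at 5.74, 5.30, 5.23 and 5.35. The fractions overlapped in both agents, with differences of 0.19 (SE 0.21, adjusted p = 0.617 by limma) and 0.32 (SE 0.21, adjusted p = 0.378 by limma).

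Of the checkpoint and kinetochore genes, which attach chromosomes to the spindle and delay their separation until all are attached, 6 of 8 were called higher in vehicle pools and 5 in undecanal pools, with medians of 1.32 and 1.26. Bub1, a checkpoint kinase, read 3.16, 4.33, 3.17 and 3.64 in vehicle arrays titled GFP-, all below background, and 6.96, 5.49, 5.41 and 6.50 in those titled GFP+. Its undecanal readings were 3.20, 2.91, 3.53 and 3.09, again below background, and 7.09, 6.00, 5.18 and 5.67. It was at least 2.44-fold higher in vehicle pools (limma adjusted p = 1.20e-04) and at least 2.27-fold higher in undecanal pools (limma adjusted p = 3.63e-05). Ttk, the checkpoint kinase Mps1, lay at the other end. Its vehicle readings were 4.65, 3.87, 4.37 and 4.83, and 5.28, 3.82, 4.58 and 4.25. Its undecanal readings were 4.37, 3.82, 4.00 and 3.87, and 4.76, 4.83, 4.89 and 4.66. The vehicle fractions overlapped (difference 0.054 (SE 0.26, adjusted p = 0.923 by limma)). The undecanal fractions did not overlap but missed the threshold at 0.77 (SE 0.26, adjusted p = 0.0577 by limma), which it passed under 6 of 15 alternatives. A total of 12 of the 16 Ttk readings were below background.

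Nuf2 and Ndc80, which hold microtubules at the kinetochore, were called in both agents. Nuf2 differed by 1.73, a call lost without vehicle pool 1 (limma adjusted p = 0.0618), and by 2.01, and Ndc80 was at least 1.13-fold and at least 1.08-fold higher. Cenpe, a kinetochore motor, differed by 1.23 (SE 0.34, adjusted p = 0.0197 by limma) and 1.42 (SE 0.34, adjusted p = 0.00761 by limma). The first call was lost under 4 of 16 alternatives, among them leaving out vehicle pool 1 or 4 (limma adjusted p up to 0.138), and the second without undecanal pool 1 or 3 (up to 0.065). Cdc20, the activator of the anaphase-promoting complex, was called in both agents with all 16 readings below background, so no fold is given. Its undecanal call was lost under 5 of 15 alternatives, which are median centring and leaving out each undecanal pool in turn (limma adjusted p up to 0.19). Bub1b, the checkpoint protein BubR1, differed by 1.42 (SE 0.46, adjusted p = 0.0479 by limma) in vehicle pools, a call lost under 11 of 16 alternatives, and by 1.11 (SE 0.46, adjusted p = 0.14 by limma) in undecanal pools. Cenpf, a kinetochore protein of late G2, passed in neither (limma adjusted p = 0.16 and 0.242).

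Genes of the spindle, of chromosome structure and of cytokinesis were called higher for 9 of 10 in both agents, with medians of 1.66 and 1.68. Mki67, which coats mitotic chromosomes and is the usual marker of proliferating cells, had the largest difference of the 38. It stood at 5.40, 4.27, 5.57 and 4.85 in vehicle arrays titled GFP- and at 10.82, 9.66, 10.54 and 9.51 in those titled GFP+. In undecanal pools it stood at 5.23, 5.61, 4.89 and 5.42, and at 11.09, 10.47, 9.92 and 9.07. The fractions lay far apart in every pool, with differences of 5.11 (SE 0.39, adjusted p = 2.00e-08 by limma) and 4.85 (SE 0.39, adjusted p = 4.01e-08 by limma), or 34.6-fold and 28.8-fold. Top2a, the topoisomerase that untangles replicated DNA, also marks dividing cells. Its vehicle levels were 5.59, 5.87, 6.19 and 5.88, and 7.38, 6.98, 6.91 and 6.14. Its undecanal levels were 6.09, 6.09, 6.27 and 5.97, and 7.20, 7.04, 7.49 and 7.05. Vehicle pool 4 titled GFP+ lay within the range of the other fraction, and the differences were 0.97 (SE 0.21, adjusted p = 0.00348 by limma) and 1.09 (SE 0.21, adjusted p = 0.00124 by limma). The vehicle call was lost after quantile normalization and without vehicle pool 1 (limma adjusted p up to 0.0558).

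Nusap1, which bundles spindle microtubules, differed by 2.76 (SE 0.29, adjusted p = 1.43e-06 by limma) in vehicle pools and was at least 7.08-fold higher in undecanal pools. Kif11, the motor that pushes spindle poles apart, differed by 2.48 (SE 0.26, adjusted p = 1.15e-06 by limma) and 2.00 (SE 0.26, adjusted p = 1.60e-05 by limma). Kif20a and Kif23, motors of the cleavage furrow and midzone, were called in both agents, Kif20a at least 1.47-fold and 1.47-fold higher and Kif23 by 1.35 and 1.49. The Kif23 calls were lost under 4 and 2 of 16 alternatives, among them leaving out vehicle pool 1, 3 or 4 (limma adjusted p up to 0.0785) and undecanal pool 1 or 2 (up to 0.0652). Tpx2, a factor of spindle assembly, was at least 1.52-fold and at least 1.5-fold higher. Cdca8 and Birc5, which with Aurkb form the chromosomal passenger complex, were called in both agents; in vehicle pools Cdca8 was at least 1.24-fold higher and Birc5 differed by 1.21, and in undecanal pools they were at least 1.42-fold and at least 1.6-fold higher. The Birc5 calls were lost under 3 of 16 alternatives in vehicle pools, among them leaving out pool 2 or 3 (limma adjusted p up to 0.199), and without any 1 of the 4 undecanal pools in undecanal pools (up to 0.136). The Cdca8 vehicle call was lost without vehicle pool 2 (limma adjusted p = 0.0822). Prc1, which bundles midzone microtubules, did not pass. It stood at 7.20, 6.57, 6.84 and 6.93 in vehicle arrays titled GFP- and at 7.08, 6.97, 7.27 and 6.66 in those titled GFP+. In undecanal pools it stood at 6.79, 7.01, 7.10 and 6.54, and at 6.98, 6.77, 7.25 and 7.12. The fractions overlapped throughout, with differences of 0.11 (SE 0.18, adjusted p = 0.744 by limma) and 0.17 (SE 0.18, adjusted p = 0.61 by limma).

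Over groups, 25 of the 38 genes had every vehicle array titled GFP+ above every one titled GFP-, against 9.83% of all probe sets, and 28 of 38 did so in undecanal pools, against 9.43%. On 34 of the 38 probe sets at least 1 group mean was above background, and the 4 others were Cdk1, Melk, Ttk and Cdc20. Of the 8 genes called in neither agent, Cdc45, Mcm4, Tyms, Aurka, Prc1 and Ccne2 were above background in all 4 group means, while Ttk was below it in all 4 and Cenpf in both groups titled GFP-.

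The arrays titled GFP+ also differed among themselves. Over the 28 genes called in both agents, undecanal pool 1 titled GFP+ held the highest value of its group for 21 and pool 4 the lowest for 19. In vehicle arrays titled GFP+, pool 1 was highest for 14 and pool 3 for 12, and pools 2 and 4 were lowest for 12 and 13. The mean level over the 38 genes was 7.11, 6.56, 6.91 and 6.58 in vehicle pools 1 to 4 titled GFP+, and 7.37, 6.83, 6.69 and 6.37 in undecanal pools. In arrays titled GFP- it ran from 5.22 to 5.40. The median of all probe sets in undecanal arrays titled GFP+ fell in the same pool order, at 6.342, 6.318, 6.257 and 6.206. In vehicle arrays titled GFP+ that median was 6.288, 6.286, 6.265 and 6.286. How often each pool was highest or lowest was not counted over all probe sets. As for the 38 genes, the mean over 8 erythroid precursor genes was highest in pool 1 of both agents. It was 7.07 against 6.46 to 6.53 in vehicle pools and 7.25 against 6.07 to 6.23 in undecanal pools. The vessel, stroma and glia list was also highest there, at 5.145 against 4.63 to 5.02 and 5.01 against 4.76 to 4.81. Monocyte and sustentacular lists were highest in undecanal pool 1 (9.06 and 11.13), but in vehicle pools 2 (8.68) and 4 (10.98). The lymphocyte list was high in pools 1 and 2, at 5.89 and 5.98 with vehicle and 6.45 and 5.87 with undecanal, and low in pools 3 and 4, at 4.98, 4.56, 4.58 and 4.44. Globose basal progenitor genes were highest in vehicle pool 4 (7.49) and undecanal pool 2 (7.60), and granulocyte precursor genes in pool 3 of both agents (9.28 and 9.56). The part of these cells in the values of the 38 genes was not tested.

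**Figure D3:**
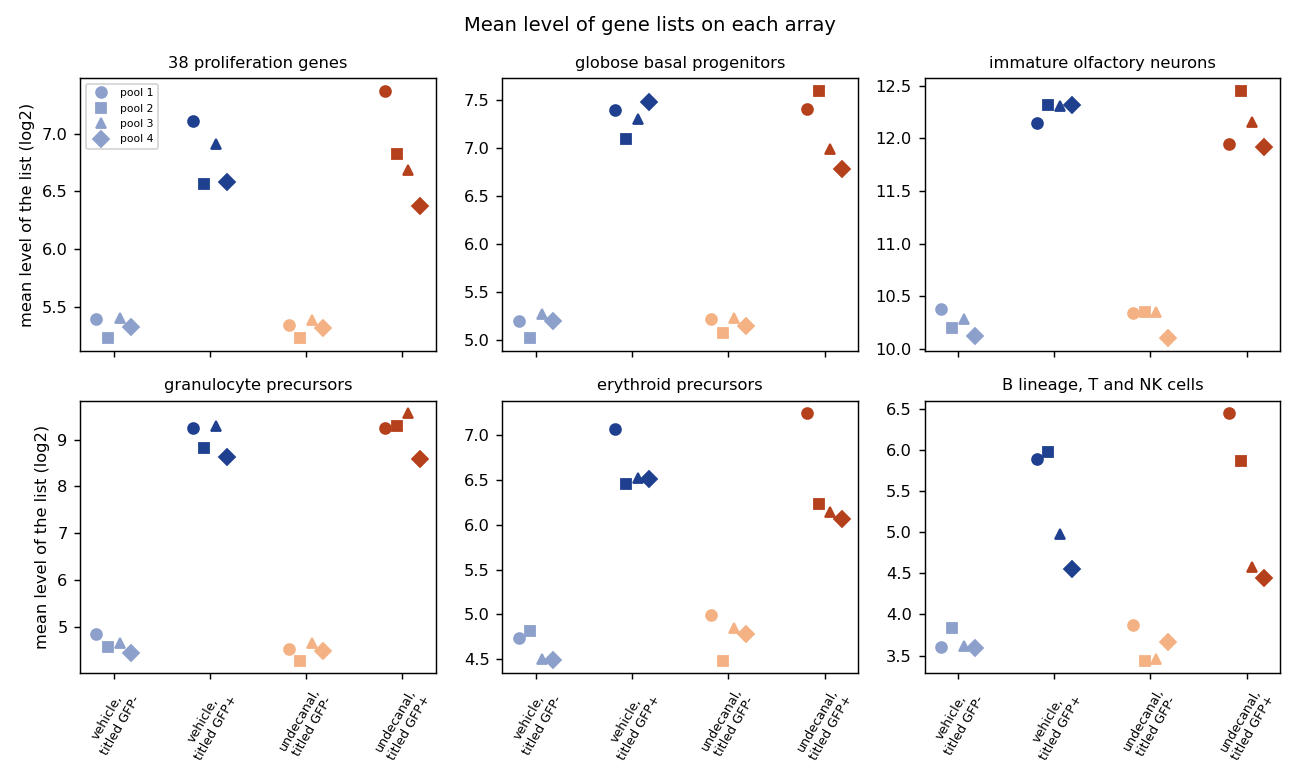
Mean log2 level of 6 gene lists on each of the 16 arrays, by group and pool. The 38 proliferation genes, globose basal progenitors, immature neurons, granulocyte and erythroid precursors and lymphocytes are all higher in arrays titled GFP+. Of these 6 lists, proliferation and erythroid genes are highest in pool 1 titled GFP+ in both agents.

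Markers of several cell types that hold dividing cells moved with the fractions. Of all probe sets, 8.82% were called higher in vehicle pools and 8.83% in undecanal pools. Of 9 measured genes of globose basal progenitors 6 were called higher in vehicle pools and 7 in undecanal pools, and the log2 of their summed level ran from 9.32 to 9.94 in arrays titled GFP- and from 11.04 to 12.44 in those titled GFP+. Differences of the 9 ran from 0.51 to 6.04 in vehicle pools and from -0.40 to 5.71 in undecanal pools, where 8 were above 0. Lgr5 had the lowest difference in both agents and was called in neither. Kit, a receptor of these progenitors, was at least 5.48-fold and at least 3.75-fold higher, and Sox2 differed by 1.44 and 1.89. Neurog1, which commits them to neurons, was below background in all 4 group means, so no fold is given. It was called higher in undecanal pools (limma adjusted p = 0.00181) and not in vehicle pools (limma adjusted p = 0.0595). The 5 genes of horizontal basal cells, the resting stem cells, were below background in every group, and 0 were called. Of 8 immature neuron genes, 6 and 4 were called higher, with median differences of 1.62 and 1.42. Their mean log2 level ran from 10.1 to 10.38 in arrays titled GFP- and from 11.92 to 12.45 in those titled GFP+. The sums, which the brightest genes dominate, ran from 16.22 to 16.72 against 16.77 to 16.87. Mature neuron markers were above background in every group mean except Cngb1, which was below it in all groups but undecanal titled GFP-. Of the 13, 0 were called higher and 3 lower in each agent, and Omp differed by -0.0035 and -0.046.

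Blood cell lists were also called in part or in full, beside the 8.82% and 8.83% of all probe sets called higher. Of 10 granulocyte precursor genes 9 and 10 were called higher, with sums from 7.80 to 8.57 in arrays titled GFP- and from 16.88 to 17.70 in those titled GFP+. Cebpe, called in undecanal pools alone, was below background on all 4 arrays of each group, so no fold is given. Their defining enzymes Elane and Mpo differed by 4.25 and 6.17 in vehicle pools, and Prtn3 by 1.82. All 7 genes of mature neutrophils, which do not divide, were called in both agents, with sums from 7.07 to 7.59 against 15.74 to 16.75. All 7 measured monocyte genes were called too, from 6.78 to 8.07 against 13.71 to 15.05. Of 8 erythroid genes 5 were called in each agent, from 8.18 to 9.16 against 10.66 to 12.41, with Slc4a1 and Alas2 at 3.11 and 2.49 in vehicle pools. Klf1 and Gata1 of that list were below background in all 4 group means and were called in neither agent. Of 8 lymphocyte genes 4 were called, from 6.65 to 7.19 against 7.92 to 11.45, with Cd79a at 3.95. Vpreb1, Dntt, Cd3g and Ncr1 of that list were below background in all 4 group means. Sustentacular genes were called higher for 3 of 5, from 12.51 to 14.37 against 14.98 to 16.16. Vessel, stroma and glia genes were called for 1 of 7 with vehicle and 2 of 7 with undecanal, from 7.63 to 7.93 against 7.80 to 8.66. That is 14.3% and 28.6% of the list, beside 8.82% and 8.83% of all probe sets, with median differences of 0.15 and -0.034. The part of all these cells in the differences of the 38 genes was not tested.

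Other genes of the cycle were read from 4 lists that exclude the 38. Among 39 further replication genes 6 were called higher in vehicle pools and 8 in undecanal pools, and 0 lower, with median differences of 0.16 and 0.23. E2f2, an activating E2F, was at least 12.4-fold and at least 10.4-fold higher, and E2f8, a repressing one, differed by 3.41 (SE 0.31, adjusted p = 2.38e-07 by limma) and 3.28 (SE 0.31, adjusted p = 4.19e-07 by limma). Asf1b, a histone chaperone, differed by 2.13 and 2.35, and Dbf4, which activates the Cdc7 kinase at origins, by 1.18 and 1.69. The split of this list hangs on scaling: with median centring 6 were higher and 5 lower in vehicle pools and 6 higher and 10 lower in undecanal pools, and without vehicle pool 1 3 were called in vehicle pools. In the overall table those splits were 1959 higher to 1138 lower in vehicle pools on the deposited scale, 1570 to 11231 with median centring, 1876 to 1830 after quantile normalization and 3103 to 452 with centring on mature neuron markers.

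Among 51 further mitotic genes 24 were called higher in vehicle pools and 23 in undecanal pools, 0 lower, with medians of 0.57 and 0.71; without vehicle pool 1, 13 were called in vehicle pools, and without undecanal pool 2, 15 in undecanal pools. Ube2c, the ubiquitin-conjugating enzyme of the anaphase-promoting complex, was at least 7.56-fold and at least 7.36-fold higher. Cdca3, a trigger of mitotic entry, differed by 2.33 (SE 0.31, adjusted p = 2.64e-05 by limma) and 2.09 (SE 0.31, adjusted p = 8.76e-05 by limma), and Cenpa, the histone of centromeres, by 1.76 and 1.91. Kif15, a spindle motor, was at least 1.69-fold and at least 1.33-fold higher. As a share, 47.1% of the further mitotic genes and 15.4% of the further replication genes were called higher in vehicle pools, against 8.82% of all probe sets.

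The G1 list, which holds the D cyclins, their kinases and Myc, had 6 of 15 called higher in vehicle pools and 7 in undecanal pools, 0 lower, with medians of 0.46 and 0.48; with median centring 5 were higher and 5 lower in vehicle pools. Cdk2, the partner of cyclins E and A, was at least 6.98-fold and at least 7.58-fold higher, and Cdc25a, which activates it, at least 1.33-fold and at least 1.42-fold. Myc differed by 3.79 (SE 0.29, adjusted p = 2.58e-08 by limma) in vehicle pools and was at least 9.56-fold higher in undecanal pools, and Ccnd3, cyclin D3, differed by 1.79 and 1.51. Of 16 inhibitor and exit genes, which hold the cycle back, 8 and 7 were called higher and 0 lower, with medians of 0.75 and 0.42, beside 8.82% and 8.83% of all probe sets called higher; 13 and 15 of the 16 differences were above 0, and the lowest was -0.52. Btg2, an antiproliferative factor, differed by 5.93 (SE 0.28, adjusted p = 6.21e-11 by limma) and 5.52 (SE 0.28, adjusted p = 1.57e-10 by limma), and Btg1 by 1.54 and 1.36. Cdkn1b, the kinase inhibitor p27, was at least 13-fold and at least 12.9-fold higher, and Gadd45b, a stress response gene, differed by 2.90 and 2.12.

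Undecanal itself was compared with vehicle within each fraction, which asks whether exposure to the odorant changed these genes. None of the 38 passed in arrays titled GFP+, where 0.0045% of all probe sets were called higher, or in those titled GFP-, where 0% were (limma, adjusted p under 0.05). At an unadjusted p under 0.05 the counts were 0 and 1 of 38, against 2.72% and 4.12% of all probe sets. The median differences, undecanal minus vehicle, were -0.037 and 0.0048, beside medians over all probe sets of 0.012 and 0.0043. In arrays titled GFP+ the 3 smallest p were those of Melk (0.63, 95% interval -0.13 to 1.38), Cenpe (0.57, -0.15 to 1.29) and Top2a (0.34, -0.10 to 0.79), each with a limma adjusted p of 0.999. In those titled GFP- they were Mcm3 (-0.58, -1.15 to -0.0096), Melk (0.63, -0.12 to 1.39) and Ttk (-0.41, -0.95 to 0.13), each with a limma adjusted p of 1. The 8 readings of Mcm3 and the 8 of Melk in that fraction were all below background.

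A miss of the threshold does not show that the agents act alike. The 95% intervals over the 38 genes reached from -1.08 to 1.38 in arrays titled GFP+ and from -1.47 to 1.39 in those titled GFP-. For Mki67 the interval was -0.81 to 0.82 in arrays titled GFP+ and -0.55 to 1.08 in those titled GFP-, and for Pcna -0.27 to 0.25 and -0.18 to 0.34. The change of the sort difference with undecanal (interaction) passed for 0 of 38 genes and 0% of all probe sets, with 0 of 38 and 2.63% at an unadjusted p under 0.05. The median change of the 38 genes was 0.033. The smallest p were those of Ttk (0.71, 95% interval -0.05 to 1.48), Mcm6 (-0.50, -1.16 to 0.17) and Plk1 (0.52, -0.26 to 1.31), each with a limma adjusted p of 1. The 4 lists of other cycle genes had 0 calls in each of these 3 comparisons.

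**Figure D4:**
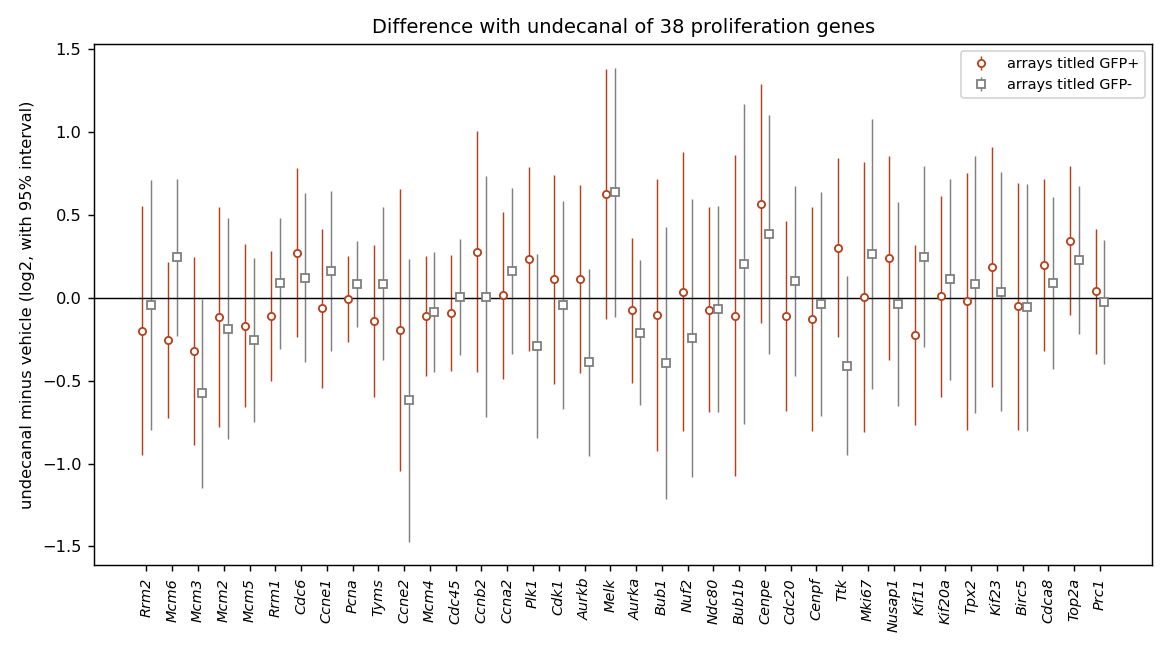
Difference with undecanal, undecanal minus vehicle on the log2 scale with its 95% interval, for 38 genes in arrays titled GFP+ (circles) and titled GFP- (squares), 4 arrays per group. The intervals of all genes include 0 except that of Mcm3 in arrays titled GFP-, and none passed after adjustment.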

How the data were processed

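Gene expression was measured in 16 samples of sorted mouse olfactory mucosa on Clariom S arrays. The deposited values are log2 summaries per probe set; Affymetrix Expression Console is the tool that the submitters' processing notes name for the authors' processing. Which algorithm, version and annotation it used was not given in the sources used here. Of 28846 rows, 6640 were controls and were left out, and all 22206 other probe sets were fitted without further scaling or filter. The platform annotation named 1 gene for 19572 of them and none for 2634. Arrays have no depth, and their number limits the precision.

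A linear model of 4 group means was fitted over the 16 arrays (limma 3.58.1 with lmFit and eBayes, R 4.3.3), with no block, and the fit was tested on simulated data. Benjamini-Hochberg adjustment ran over all probe sets, with a threshold of 0.05. The fit takes 2 arrays from 1 pool as unrelated samples, which bears on its p-values.

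The labels' 24 mice in pools of 3 make 8 pools, so the arrays with 1 number under 1 agent are read as the fractions of 1 pool. Their deviations from group means had r between 0.050 and 0.271, with 6 of 8 above 0.1. Among the arrays titled GFP- of its agent, each of the 8 arrays titled GFP+ matched its own pool best. The same number under the other agent had r between -0.042 and 0.291 and pairs no mice. The 0.291 was that of the pool 1 arrays titled GFP+, above the 0.229 (vehicle) and 0.243 (undecanal) between the fractions of pool 1. Arrays of a group correlated at 0.989 to 0.993, and 0 pairs were identical.

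The genes and lists were chosen with earlier results of these data known. Values on every array are given for Mki67, Top2a, Cdk1, Pcna, Mcm2, Ccne1, Ccnb2 and, for each role, the genes with the largest and smallest vehicle difference between fractions. Undecanal comparisons name the 3 smallest p, other cycle lists up to 4 called genes of largest difference, and marker lists their first genes. Alternatives covered scaling, a filter on dim probe sets, the arrays in the fit, the prior variance, array weights, a minimum difference, replicate blocks and left-out pools.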

Additional observations from a re-analysis of the deposited data

Results flagged for a closer look

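In 10 of 152 sets of 4 arrays, 1 per gene and group, 1 array stood apart from the other 3 by Dixon's 95% criterion. That is 6.58%, where chance gives about 5%. In undecanal pool 1 titled GFP+ the level was the highest of its group for Ccne1 (6.23, next 5.82), Cdk1 (5.38, next 3.98) and Cenpf (6.05, next 4.56). In undecanal pool 4 titled GFP+ Kif23 was lowest (5.95, next 7.15), and in vehicle pool 2 titled GFP+ Tyms was lowest (7.02, next 7.61). In undecanal arrays titled GFP- Ccne2 was lowest in pool 2 (4.46, next 5.89), Mcm3 highest in pool 2 (4.14, next 3.52) and Mcm4 lowest in pool 1 (8.28, next 8.53). In vehicle arrays titled GFP- Cdc6 was lowest in pool 1 (3.52, next 4.25) and Aurkb highest in pool 4 (4.40, next 4.29). The values of Cdc6, Mcm3 and Aurkb lie below the background level, as do those of Ccne2 in pool 2 and of Cdk1 and Cenpf in the other 3 pools.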

How the results depend on the processing

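In vehicle pools 25 to 32 of the 38 genes were called under the other settings, and 22 to 30 with 1 pool left out, against 30. In undecanal pools the counts were 24 to 30, and 21 to 29 with 1 pool left out, against 28. All of these calls were higher in arrays titled GFP+, and undecanal differences and interactions gave 0 calls for these genes under every setting run. The minimum difference of 1 was applied to the list counts only, so the alternatives counted gene by gene leave it out. Under those alternatives, 26 genes in vehicle pools and 28 in undecanal pools always stayed on their side of the threshold. A further 10 and 8 genes lost their call under some, and 2 and 2 gained one. Of the 26, Pcna (0.66) and Rrm1 (0.85) were called but fall short of a difference of 1. No gene had a second probe set to try. With the pool as a replicate block 29 genes were called in vehicle pools and 28 in undecanal pools, and 0 in the other comparisons, also with the replicate number as a block; the block ended the Melk calls and called Ttk in undecanal pools. Counts of other replication genes moved from 6 in vehicle pools to 11 with median centring of arrays and 12 centred on mature neuron markers (3 to 7 with 1 pool left out), and from 8 in undecanal pools to 16, 13 and, with a difference of at least 1, 5 (6 to 8 with 1 pool left out). Other mitotic genes had 13 to 22 calls in vehicle pools with 1 pool left out, against 24, and in undecanal pools 15 to 23, and 13 with a difference of at least 1, against 23. Median centring of arrays gave the G1 list 10 calls in place of 6 in vehicle pools. The filter on dim probe sets left 34 of the 38 genes, and signal near background limits Cdk1, Melk, Ttk and Cdc20. It also limits Cdc6, Ndc80, Tpx2, Kif20a and Cenpf, where some arrays of the brighter group were below background as well. For Cdc6 these were 2 vehicle arrays and 1 undecanal array, and for Ndc80 1 vehicle array and 2 undecanal arrays.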
